A study of Mus musculus with 9 samples.

Results

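The Schlafen genes are a family of mouse genes clustered on chromosome 11, and 7 of them (Slfn1, Slfn2, Slfn3, Slfn4, Slfn5, Slfn8 and Slfn9) are described here in the omentum, a sheet of abdominal fat and immune tissue to which tumour cells spread. They were taken from the 55359 genes of the count table by matching gene identifiers to symbols, and all 7 were found and passed the filter on low counts. C57BL/6 mice aged 7 to 10 weeks received 500000 B16-OVA cells, a melanoma line that makes ovalbumin, into the peritoneal cavity, and all 9 omenta therefore carried tumour. On day 6 the IP mice were given OT-I T cells, which carry 1 receptor that is specific for ovalbumin, loaded by electroporation with mRNA for the cytokine IL-12, into the peritoneal cavity. The IV mice were given the same kind of cells into the blood, and the PBS mice were given saline. Poly(A) RNA of the whole omentum was sequenced 18 h later, with 3 libraries from separate mice in each group (IP 2, IP 3 and IP 4, IV 1, IV 2 and IV 4, PBS 1, PBS 2 and PBS 3). No group received T cells without the mRNA, and the PBS titles name no route, so effects of cells, mRNA and injection cannot be told apart.

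Schlafen proteins are induced by interferons and by activation of immune cells, and are known for restraining cell growth and for acting on RNA. They share a core region, and the family is divided by size into short, intermediate and long members, the long ones carrying an additional helicase-like part. Slfn1 and Slfn2 are short, with a longest annotated coding length of 1011 and 1134 bases, Slfn3 and Slfn4 are intermediate (1920 and 1806 bases), and Slfn5, Slfn8 and Slfn9 are long (2652, 2730 and 2730 bases). Along chromosome 11 the annotation places Slfn5, Slfn9, Slfn8, Slfn10-ps, Slfn2, Slfn1, Slfn4, Slfn3 and Slfn14 in this order. In mice, Slfn2 keeps T cells and monocytes quiescent and shields tRNA from cleavage, Slfn1 slows the growth of thymocytes when overexpressed, and Slfn4 is an interferon-induced gene of myeloid cells. Slfn3 has been studied in rodent gut epithelium, and the human counterpart of Slfn5 is induced by interferon.

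The promoters of 4 members are shown because they set a member that differed between the routes (Slfn4) beside neighbours that share a sequence element and differ in their response (Slfn5, Slfn8 and Slfn9). Each window runs from 250 bases before to 50 bases after the annotated start, 5′ to 3′ on the gene's own strand, from RefSeq on GRCm38.p6. That build differs from the mm39 named in the submitters' processing notes. Capitals mark the core of an interferon-stimulated response element, searched for on both strands as GAAA, any 2 bases and GAAA (in the other direction TTTC, any 2 bases and TTTC). Matches of a pattern to itself could overlap.
Slfn4, chr11:83174936-83175235, plus strand: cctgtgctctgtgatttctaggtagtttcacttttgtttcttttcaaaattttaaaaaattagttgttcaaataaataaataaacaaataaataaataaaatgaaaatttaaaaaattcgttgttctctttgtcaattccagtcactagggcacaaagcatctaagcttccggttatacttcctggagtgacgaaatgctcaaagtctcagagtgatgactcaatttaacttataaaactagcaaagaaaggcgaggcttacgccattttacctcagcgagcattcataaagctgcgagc
Slfn5, chr11:82951852-82952151, plus strand: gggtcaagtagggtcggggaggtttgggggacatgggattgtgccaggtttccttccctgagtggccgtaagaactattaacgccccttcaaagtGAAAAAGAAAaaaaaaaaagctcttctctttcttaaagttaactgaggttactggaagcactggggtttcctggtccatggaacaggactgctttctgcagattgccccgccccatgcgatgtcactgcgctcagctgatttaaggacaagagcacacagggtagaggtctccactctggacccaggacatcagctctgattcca
Slfn8, chr11:83020761-83021060, minus strand: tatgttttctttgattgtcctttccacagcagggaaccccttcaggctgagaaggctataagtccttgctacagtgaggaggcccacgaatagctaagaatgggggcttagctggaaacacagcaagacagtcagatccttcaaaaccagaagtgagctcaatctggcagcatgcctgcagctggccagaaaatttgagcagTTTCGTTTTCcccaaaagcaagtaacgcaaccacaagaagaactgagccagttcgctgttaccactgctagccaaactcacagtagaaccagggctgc
Slfn9, chr11:82991781-82992080, minus strand: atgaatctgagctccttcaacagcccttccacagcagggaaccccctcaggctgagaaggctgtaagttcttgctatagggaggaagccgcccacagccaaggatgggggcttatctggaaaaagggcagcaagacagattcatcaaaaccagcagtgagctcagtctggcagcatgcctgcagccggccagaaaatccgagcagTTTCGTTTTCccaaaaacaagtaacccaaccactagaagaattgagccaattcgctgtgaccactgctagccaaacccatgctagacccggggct
The core was present in the windows of 3 of the 7 genes, and in 4 of 8 windows when the other annotated start of Slfn8 was counted, against 1131 of 32851 RefSeq promoter windows of the same length (3.44%). The windows of both Slfn8 starts overlap and hold the same site, so the added window is not a further site. In Slfn8 the site TTTCGTTTTC lay at bases -48 to -39, counted from the start, and in Slfn9 the same site lay at -45 to -36. In Slfn5 the site GAAAAAGAAA lay at -155 to -146. The windows of Slfn8 and Slfn9 were identical at 252 of 312 aligned positions (80.8%), while all other pairs of member windows reached 46.5% to 53.0%. No member window held TTCNNNGAA, the palindromic letters of a gamma-activated site, which were present in 8.30% of all windows. A match is a run of letters and not a measured binding site. Only exact matches were counted, so a window without one may hold near matches. It says nothing about binding there or elsewhere.

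**Figure D1:**
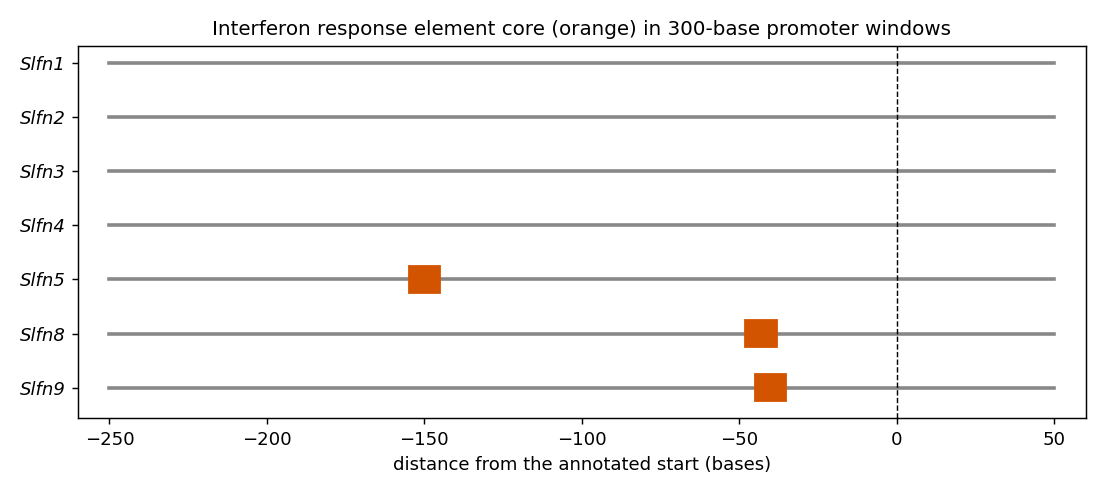
Position of the response element core in the 300-base promoter window of each Schlafen gene. The horizontal axis is the distance in bases from the annotated start (dashed line), each grey line is 1 window and each orange block a match on either strand. Slfn8 and Slfn9 hold a match less than 50 bases before the start, Slfn5 holds one farther away, and the windows of the other 4 genes hold none.

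Library totals ranged from 7379798 counts in IV 2 to 44626843 in PBS 3. Adipocyte and mesothelial markers of the omentum were detected in all libraries, with summed levels of 214 to 597 CPM (counts scaled to a common library total) for 5 adipocyte genes and 93.6 to 162 CPM for 5 mesothelial genes. Of all pairs of libraries from different groups, IV 4 and PBS 3 were the most alike (r = 0.981 of log2 CPM across genes, which are not replicates, against at most 0.965 for the other pairs). IV 4 also correlated more with PBS 1, PBS 2 and PBS 3 (0.958, 0.959 and 0.981) than with IV 1 and IV 2 (0.948 and 0.953). With IP 2, IP 3 and IP 4 it correlated at 0.957, 0.960 and 0.945. The reason for these likenesses was not tested, and a swap or mixing of samples cannot be judged from these values. Counts of called Schlafen genes, and the fold changes of the 7, are also given without IV 4 and PBS 3. The summed level of 7 pancreatic acinar genes reached 15100 CPM in IP 4 (153 and 179 CPM in the other IP libraries) and was 19000, 3410 and 9.38 CPM in IV 1, IV 2 and IV 4, against 13.2 to 19.8 CPM in the PBS libraries.

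After IP delivery, 5 of the 7 Schlafen genes were higher than after PBS, by factors between 4.68 and 8.4, and none passed as lower. The higher ones were Slfn1, Slfn2, Slfn4, Slfn5 and Slfn8, and every IP library lay above every PBS library for each of them. In the same test 18.7% of 17123 genes were called higher, 14.2% lower and 32.9% either way, and in 28.4% every IP library lay above every PBS library. Without PBS 3 and IV 4 there were 6 called members, the 5 that rose and Slfn3, which fell by 0.90 on the log2 scale (adjusted p = 0.0152), while the calls over all genes went up to 6384, against 5626 with all libraries. The log2 fold changes without both were 3.25 for Slfn1, 2.89 for Slfn2, 3.14 for Slfn4, 2.78 for Slfn5, 3.35 for Slfn8 and 0.10 for Slfn9. The median log2 fold change was 2.68 over the 7 members and 0.02 over all genes. In whole tissue, more cells of a type and more RNA per cell cannot be told apart.

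With all libraries Slfn4 had the largest estimated change of the 7 in IP omenta. This order was not tested, and without PBS 3 and IV 4 the estimates for Slfn8 and Slfn1 were larger. The level of Slfn4 was 226, 196 and 171 CPM in IP 2, IP 3 and IP 4, against 24.3, 19.5 and 26.6 CPM in PBS 1, PBS 2 and PBS 3. The PBS libraries were close to each other and far below the lowest IP library. This was a log2 fold change of 3.07 ± 0.20 (SE), an 8.4-fold difference, with an edgeR adjusted p of 1.25e-05.

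Slfn2, which T cells need to stay quiescent, had 325, 277 and 280 CPM in IP 2, IP 3 and IP 4, against 23.6, 55.1 and 58.7 CPM in PBS 1, PBS 2 and PBS 3. PBS 1 was the lowest library, and the IP libraries lay close together. Slfn2 differed by 2.68 ± 0.34 on the log2 scale (edgeR adjusted p = 0.000179). The other short member, Slfn1, had 138, 132 and 151 CPM in IP, against 10.0, 19.4 and 29.8 CPM in PBS, in the same order of mice. It differed by 2.83 ± 0.32 on the log2 scale (edgeR adjusted p = 0.000111), with PBS 1 again lowest and the groups well apart.

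Of the long members, Slfn8 had 131, 143 and 126 CPM in IP, against 12.2, 13.6 and 30.3 CPM in PBS. PBS 3 stood above the other PBS libraries and below every IP library. Between the groups Slfn8 differed by 2.84 ± 0.32 (edgeR adjusted p = 0.000101). Slfn5 had 195, 188 and 153 CPM in IP, against 25.2, 25.9 and 63.1 CPM in PBS, again with PBS 3 high within its group. Its log2 fold change was 2.23 ± 0.32 (edgeR adjusted p = 0.000424).

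Slfn9, the neighbour of Slfn8 with the similar promoter, had 99.6, 134 and 101 CPM in IP, against 106, 97.6 and 103 CPM in PBS. The groups overlapped, and the log2 fold change was 0.12, with a 95% interval from -0.19 to 0.44 (edgeR adjusted p = 0.548). Its upper bound lay below the lower bound of 2.13 for Slfn8. Slfn3 had 5.96, 5.12 and 4.21 CPM in IP, against 10.1, 8.48 and 7.74 CPM in PBS. All IP libraries lay below all PBS libraries, as in 24.8% of genes, but the difference of -0.78 ± 0.41 did not pass the test (95% interval -1.68 to 0.12, edgeR adjusted p = 0.174). It passed when the fit held only the IP and PBS libraries (-0.78, adjusted p = 0.0105), and when IV 4 was left out (-0.78, adjusted p = 0.0156).

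**Figure D2:**
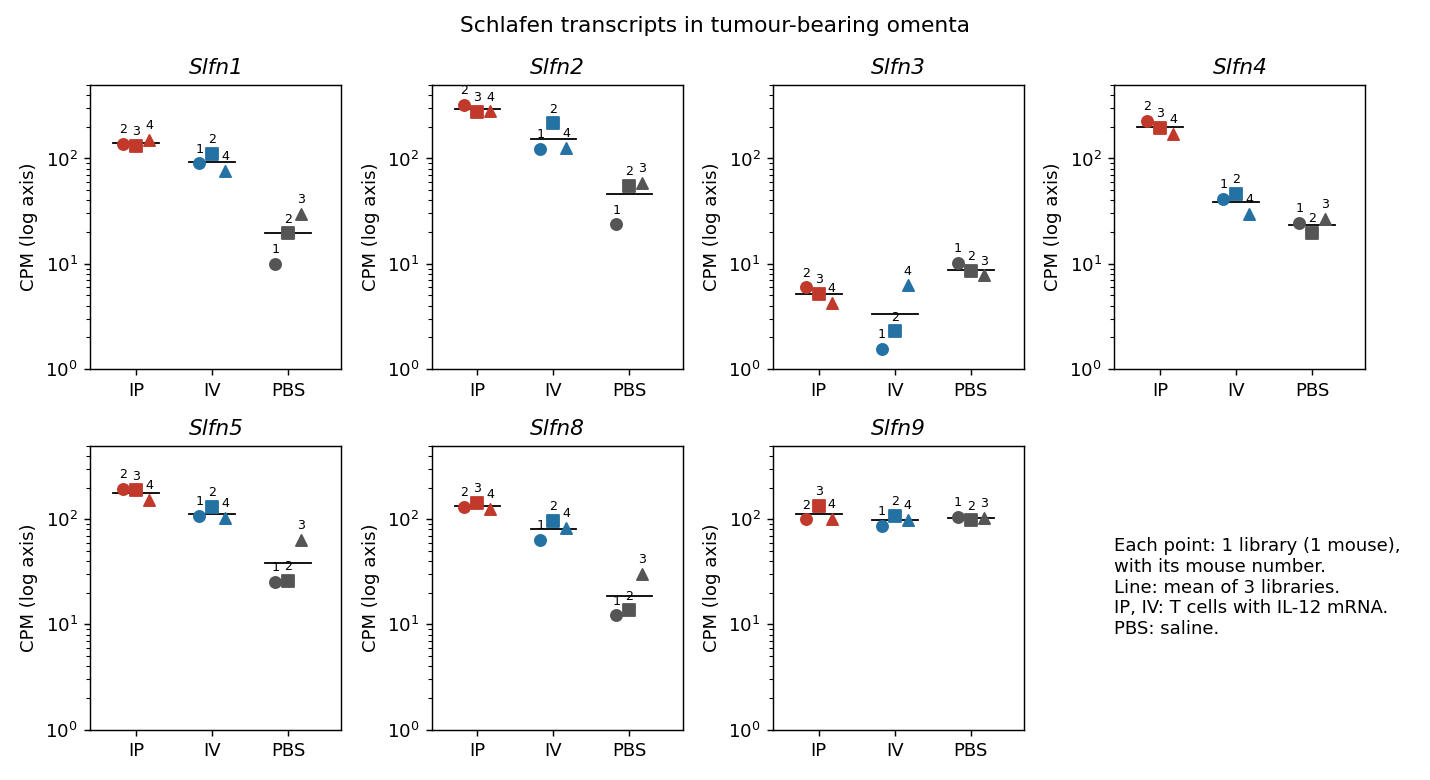
Level of each Schlafen gene in every library. The vertical axis is CPM on a log scale, each point is 1 library with its mouse number beside it, and the line is the mean of the 3 libraries of a group (IP, IV and PBS). Slfn1, Slfn2, Slfn5 and Slfn8 are highest in IP, lower in IV and lowest in PBS, Slfn4 is far higher in IP than in IV and PBS, Slfn9 is level, and Slfn3 is below PBS in every IP and IV library.

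After IV delivery, Slfn1, Slfn2, Slfn4, Slfn5 and Slfn8 were higher than after PBS, by factors between 1.65 and 4.63, and no member passed as lower. Each IV library lay above each PBS library for these 5 genes. Of all genes tested, 10.4% were called higher, 5.66% lower and 16.1% either way, and in 16.5% every IV library lay above every PBS library. The median log2 fold change was 1.57 over the 7 members and 0.04 over all genes. Without PBS 3 and IV 4 the called members were 6, the same 5 and Slfn3, which fell by 2.39 on the log2 scale (adjusted p = 0.000414), and the calls over all genes were 4442, against 2753 with all libraries. The comparison shares its PBS libraries with that of IP and PBS.

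Slfn1 had the largest estimated rise in IV omenta, an order that was not tested. It had 89.7, 110 and 75.6 CPM in IV 1, IV 2 and IV 4, against 10.0, 19.4 and 29.8 CPM in PBS 1, PBS 2 and PBS 3. The lowest IV library was IV 4 and the highest PBS library was PBS 3, the pair of libraries that resembled each other across all genes. The difference was 2.21 ± 0.32 on the log2 scale (edgeR adjusted p = 0.00275), and 2.73 without IV 4 and PBS 3. Slfn8 followed, with 63.1, 95.5 and 82.2 CPM in IV, against 12.2, 13.6 and 30.3 CPM in PBS. It differed by 2.10 ± 0.31 (edgeR adjusted p = 0.00298), and by 2.57 without these 2 libraries.

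Slfn2 had 123, 215 and 125 CPM in IV, against 23.6, 55.1 and 58.7 CPM in PBS. IV 2 stood above the other IV libraries, and the log2 fold change was 1.75 ± 0.33 (edgeR adjusted p = 0.00692), and 2.07 without IV 4 and PBS 3 (adjusted p = 0.0199). Slfn5 had 107, 130 and 103 CPM in IV, against 25.2, 25.9 and 63.1 CPM in PBS. Its log2 fold change was 1.57 ± 0.31 (edgeR adjusted p = 0.0095) and 2.16 without IV 4 and PBS 3, which moved the fold by more than 1.5 times. The call of Slfn5 was lost when no filter on low counts was used (1.5, adjusted p = 0.0715).

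Slfn4 had 40.9, 46.4 and 29.6 CPM in IV 1, IV 2 and IV 4, against 24.3, 19.5 and 26.6 CPM in PBS. The groups did not overlap, but the lowest IV and the highest PBS library were close. The log2 fold change of 0.72 ± 0.19 (edgeR adjusted p = 0.026) did not stay past the threshold without PBS 1 (0.74, adjusted p = 0.0839), without PBS 2 (0.56, adjusted p = 0.0831), without IV 1 (0.68, adjusted p = 0.069), without IV 2 (0.58, adjusted p = 0.0961) or in a fit of only the IV and PBS libraries (0.73, adjusted p = 0.0673). Without PBS 3 and IV 4 together it was 0.94 (adjusted p = 0.00312). With all libraries its 95% interval reached from 0.31 to 1.14. This lay below the intervals of Slfn1 (1.51 to 2.91) and Slfn8 (1.41 to 2.79). It overlapped those of Slfn2 (1.03 to 2.47) and Slfn5 (0.87 to 2.26), and the differences between members were not tested.

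Slfn9 had 85.7, 108 and 98.1 CPM in IV, overlapping the PBS levels of 97.6 to 106 CPM, with a log2 fold change of -0.07 (95% interval -0.39 to 0.24, edgeR adjusted p = 0.764), and -0.12 without PBS 3 and IV 4. Slfn3 had 1.56, 2.27 and 6.21 CPM in IV 1, IV 2 and IV 4, against 10.1, 8.48 and 7.74 CPM in PBS. IV 1 and IV 2, with 43 and 17 counts, were low, while IV 4, with 272 counts, came close to PBS. No IV library reached a PBS library, as in 13.6% of all genes. The difference of -1.33 ± 0.42 did not pass (edgeR adjusted p = 0.0554), and was -2.26 without IV 4 (adjusted p = 0.00122). IV 1 and IV 2 were also the IV libraries with high acinar transcripts, and IP 4, which shared these, had the lowest Slfn3 of the IP group. The part of acinar tissue in the Slfn3 values was not tested.

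The routes differed for Slfn4. Its mean was 197 ± 27.5 CPM in IP (SD, n = 3) and 39.0 ± 8.59 CPM in IV (SD, n = 3), with the lowest IP library at 171 CPM and the highest IV library at 46.4 CPM. The log2 fold change of IP against IV was 2.35 ± 0.19, a 5.09-fold difference (edgeR adjusted p = 0.000172), and it is at the same time the test of whether the effects of the routes against PBS differ. Slfn4 was the only one of the 7 called, where 5.93% of all genes were called higher in IP, 4.47% lower and 10.4% either way. Without PBS 3 and IV 4 there were 4 called members, Slfn3, Slfn4, Slfn5 and Slfn8, while the calls over all genes went up to 3486, against 1780 with all libraries. The log2 differences were then 2.20 for Slfn4, 1.5 for Slfn3, 0.61 for Slfn5, 0.78 for Slfn8, 0.51 for Slfn1, 0.82 for Slfn2 and 0.22 for Slfn9. In 17.9% of all genes every IP library lay above every IV library, and this held for 5 members, while the reverse held for 13.5% of genes and for no member. Over 18 other settings the log2 fold change of Slfn4 stayed between 2.18 and 2.49, with adjusted p-values of at most 0.00176.

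The other rising members were also higher in IP than in IV by their values, without passing the test. Slfn2 differed by 0.93 ± 0.32 (95% interval 0.23 to 1.64, edgeR adjusted p = 0.0922), and passed without PBS 1 (0.94, adjusted p = 0.0239). Slfn8 differed by 0.74 ± 0.30 (0.08 to 1.40, adjusted p = 0.149) and Slfn5 by 0.66 ± 0.31 (-0.02 to 1.34, adjusted p = 0.212). Both passed without PBS 3 (adjusted p = 0.0143 and 0.0149). No PBS library enters this comparison. Leaving 1 out kept the IP and IV counts and changed the fitted spread, the scaling and the filter. Over all genes, 673 to 2873 were called with 1 library left out, against 1780 with all libraries. Slfn1 differed by 0.62 ± 0.30 (-0.05 to 1.29, adjusted p = 0.235). When the fit held only the IP and IV libraries, all 4 passed together with Slfn4, with adjusted p-values from 0.0186 (Slfn5) to 0.03 (Slfn1). The number of all genes called in that fit is not given here, so these calls cannot be set against it. Slfn9 differed by 0.20 (95% interval -0.12 to 0.51), and Slfn3 by 0.55 (-0.38 to 1.47) with overlapping groups, and by 1.48 without IV 4 (adjusted p = 0.00802).

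Ratios within a library set Slfn4 against the other members without any scaling between libraries. The log2 ratio of Slfn4 to Slfn2 CPM ran from -0.71 to -0.50 in IP, from -2.21 to -1.59 in IV and from -1.49 to 0.04 in PBS. That to Slfn1 ran from 0.18 to 0.71 in IP, from -1.35 to -1.13 in IV and from -0.16 to 1.27 in PBS. The ratios of Slfn4 to each of the 6 other members were higher in all IP than in all IV libraries, with mean differences of 1.38 to 2.16 (two-sided exact permutation p = 0.1 for each, the smallest that 3 against 3 libraries allow). Slfn4 was singled out for this after its values were seen.

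**Figure D3:**
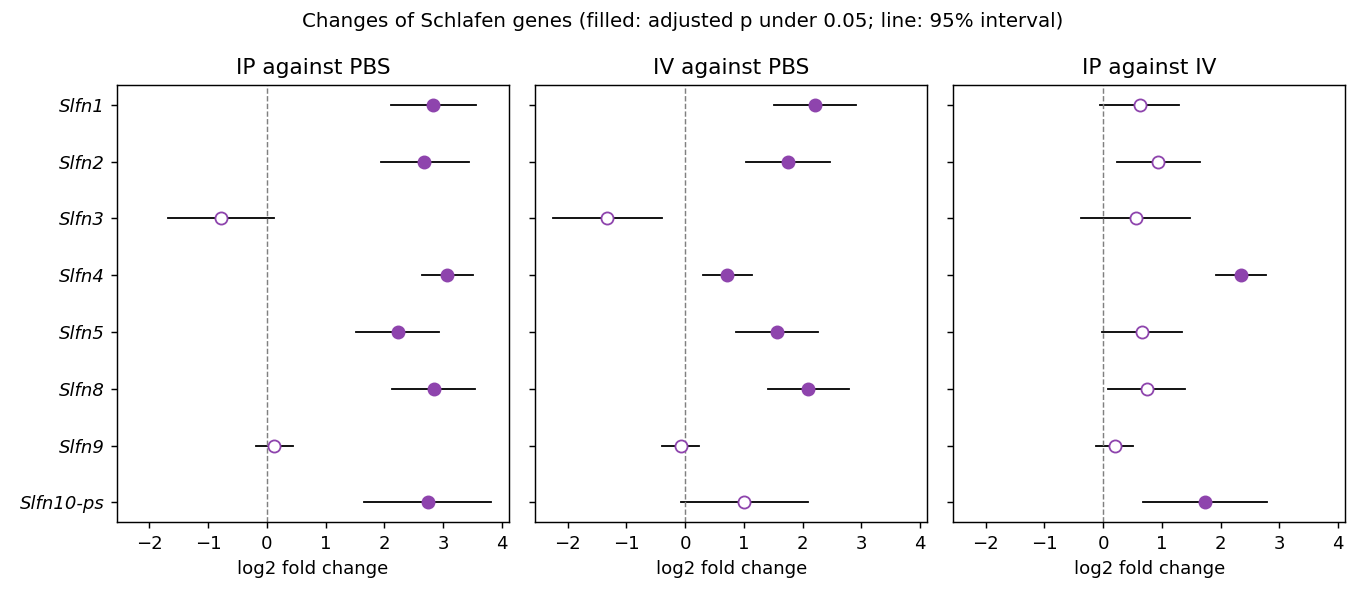
Log2 fold change of each Schlafen gene in the 3 comparisons, with its 95% interval as a line. Filled points have an adjusted p under 0.05. Slfn4 is near 3 in IP against PBS, under 1 in IV against PBS and over 2 in IP against IV, while Slfn9 lies near 0 in all 3.

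Per kb of exon, Slfn2 was the most abundant member in all IP and IV libraries, at 166 to 195 CPM per kb in IP and 73.9 to 129 in IV, against 14.2 to 35.3 in PBS. Slfn9 took 4.10% to 5.98% of the summed per-kb level of the 7 genes in IP and 6.90% to 9.25% in IV, against 18.2% to 33.3% in PBS. In PBS 1 it was the most abundant member. Slfn4 took 11.8% to 14.0% in IP and 4.20% to 5.75% in IV, against 6.58% to 11.5% in PBS. Slfn3 was the least abundant member in every library, at 0.338% to 0.429% in IP and 0.253% to 1.02% in IV, against 2.39% to 5.55% in PBS. These shares describe level by exon length from an older annotation, not protein.

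**Figure D4:**
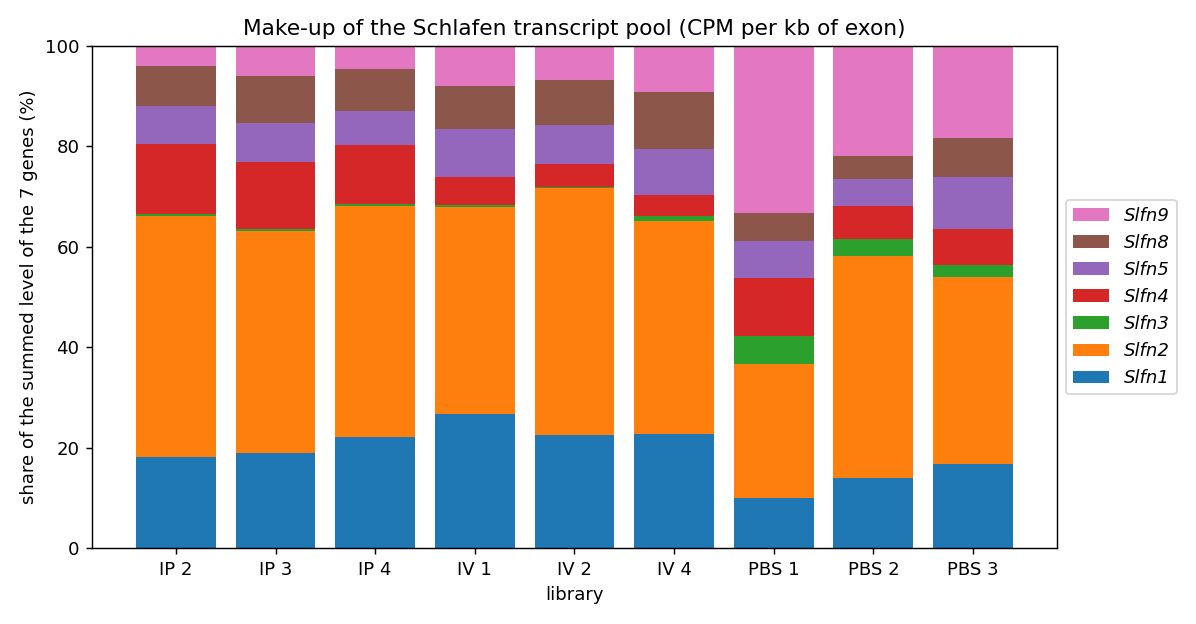
Share of each Schlafen gene in the summed level of the 7 genes, in CPM per kb of exon, for each library on the horizontal axis. Slfn9 (top) takes 18.2% to 33.3% in the PBS libraries and under 10% in the IP and IV libraries, and Slfn2 takes the largest share in every library but PBS 1.

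The members differed in how much they varied between mice of 1 group. In PBS the highest library exceeded the lowest by 2.97 times for Slfn1, 2.51 times for Slfn5, 2.49 times for both Slfn2 and Slfn8, but only by 1.36 times for Slfn4, 1.3 times for Slfn3 and 1.09 times for Slfn9. In IP the same figure was 1.13 to 1.41 for all 7. In IV it was 3.97 for Slfn3, the highest of any member in any group, and 1.26 to 1.75 for the others. PBS 3 was the highest PBS library for the 5 genes that rose, and PBS 1 the lowest for 4 of them, while PBS 2 was the lowest for Slfn4. The summed level of 10 monocyte and macrophage markers was 1300 CPM in PBS 3, against 725 and 824 CPM in the other PBS libraries. Ifng, the gene of interferon-gamma, had 1.32 CPM in PBS 3 (65 counts), 1.07 in PBS 2 (28 counts) and 0.0819 in PBS 1 (3 counts).

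Interferons, their receptors and their signalling genes were measured in the same libraries, since interferons induce Schlafen genes. Ifng had 826, 748 and 571 CPM in IP 2, IP 3 and IP 4 and 11.3, 16.3 and 12.4 CPM in IV 1, IV 2 and IV 4, against 0.0819, 1.07 and 1.32 CPM in PBS 1, PBS 2 and PBS 3. The 3 groups were apart, and IP exceeded IV by 5.76 ± 0.61 on the log2 scale (edgeR adjusted p = 0.000824). Ifnb1, the interferon-beta gene, was at 10, 12 and 5 counts in the IP libraries and at 0, 1 and 2 in the IV libraries, against 0 in every PBS library, too few to be tested. Of 5 tested interferon and receptor genes, 2 were higher and 0 lower in IP against PBS, and 2 and 0 in IV against PBS, namely Ifng and the receptor chain gene Ifnar2. Over all genes tested, 18.7% were called higher and 14.2% lower in IP, and 10.4% and 5.66% in IV.

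Of 12 genes of interferon signalling, 10 rose and 0 fell in IP (median log2 fold change 1.98), and 9 rose and 0 fell in IV (median 1.58), each against PBS. Of all genes, 18.7% rose in IP and 10.4% in IV, with medians of 0.02 and 0.04. Irf1, a transcription factor that interferon-gamma induces, averaged 1180 ± 34.7 CPM in IP (SD, n = 3) and 612 ± 25.9 in IV, against 111 ± 74.4 in PBS. Its difference between IP and IV, 0.95, did not pass (edgeR adjusted p = 0.22). It passed without PBS 1 (adjusted p = 0.00536), a library outside that comparison. Usp18, a brake on the type I interferon receptor, was the only one of the 12 to pass in IP against IV (1.32 ± 0.20, edgeR adjusted p = 0.00283). In that comparison 5.93% of all genes were called higher and 4.47% lower.

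All 18 antiviral genes on a list of interferon-induced genes rose in IP (median 3.04) and all 18 rose in IV (median 1.77), each against PBS, and 7 of the 18 were higher in IP than in IV. Of all genes, 18.7%, 10.4% and 5.93% were called higher in these comparisons. Ifit2, an inhibitor of translation of viral RNA, differed between IP and IV by 1.86 ± 0.28 (edgeR adjusted p = 0.00299), and the GTPase gene Mx2 by 1.72 ± 0.23 (adjusted p = 0.00155). Slfn4, at 2.35, lay above both, though this order was not tested. Of 9 genes of tRNA cleavage and RNA decay, 4 rose and 1 fell in IP and 3 rose and 0 fell in IV, each against PBS, where over all genes 18.7% rose and 14.2% fell in IP and 10.4% rose in IV. Samhd1, which degrades nucleotides, rose by 2.69 ± 0.25 in IP. Rnh1, the inhibitor of the tRNA-cleaving ribonuclease angiogenin, rose by 1.12 ± 0.14 in IP (edgeR adjusted p = 0.00021), while Ang, the angiogenin gene, did not pass (0.93 ± 0.43, adjusted p = 0.121). Trdmt1, a tRNA methyltransferase gene named after its value was seen, fell by 0.66 in IP (adjusted p = 0.00826).

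Cell type markers were summed in each library. The sums of monocytes and macrophages, neutrophils, T cells, NK cells and dendritic cells were higher in every IP than in every PBS library. That of B cells was not. Dendritic cell markers (6 genes) summed to 50 to 57.1 CPM in IP and 40.2 to 86.8 in IV, against 18.2 to 30.3 in PBS. Of these genes 2 were called higher in IP than in PBS, with a median log2 fold change of 0.12. The summed level of the 10 monocyte and macrophage markers was 2750 to 3060 CPM in IP and 1950 to 2760 in IV, against 725 to 1300 in PBS. That of 10 neutrophil markers was 148 to 187 CPM in IP and 103, 190 and 31.5 CPM in IV 1, IV 2 and IV 4, against 11.7 to 25.8 CPM in PBS. IV 2, with a neutrophil sum above that of every IP library, had 46.4 CPM of Slfn4, against at least 171 CPM in IP. Single neutrophil genes ran otherwise than the sum: the chemokine receptor gene Cxcr2 had 11 to 14.2 CPM in IP and 1.07 CPM in IV 2 (IP against IV 4.22 ± 0.45, edgeR adjusted p = 0.000625), and the protease gene Mmp9 had 11.8 to 18.5 CPM in IP and 5.87 CPM in IV 2 (adjusted p = 0.0106). The sum of 10 T cell markers was 278 to 315 CPM in IP and 128 to 335 in IV, against 46.1 to 118 in PBS. B cell markers (7 genes) summed to 32.7 to 58.5 CPM in IP and 122 to 446 in IV, against 52.5 to 61.8 in PBS, and NK cell markers (6 genes) to 98.6 to 103 CPM in IP and 70.6 to 204 in IV, against 14.4 to 49.0 in PBS. Of the NK genes 2 of 6 were called higher in IP than in PBS (Klrk1, an activating receptor gene that T cells also use, and the granzyme gene Gzma), and the median was -0.10. Klrb1c, which encodes the NK1.1 antigen, had 0.932 to 2.22 CPM in IP, against 1.61 to 7.36 in PBS (adjusted p = 0.0628). Melanoma markers (6 genes) summed to 13200 to 14800 CPM in IP and 17600 to 22800 in IV, against 24800 to 27600 in PBS. None of the markers of these lists was at 0 in every library. Of the tested markers, 9 of 9 neutrophil, 8 of 10 monocyte and macrophage (with 1 lower) and 8 of 10 T cell genes were higher in IP than in PBS, against 18.7% of all genes. In IV against PBS, 2 of 9, 6 of 10 and 8 of 10 were higher, against 10.4% of all genes. In IP against IV the monocyte and macrophage list had 1 higher and 1 lower gene, the neutrophil list 2 higher and the T cell list none, against 5.93% higher and 4.47% lower of all genes. The B cell list ran the other way, with 7 of 7 lower in IP than in IV and, in IP against PBS, 0 higher and 2 lower. The NK and dendritic cell lists each had 0 higher and 1 lower of 6 in IP against IV. The part of cell numbers in the Schlafen values was not tested.

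Genes with the most similar course over the 9 libraries were sought for each member, by the root mean square difference of log2 CPM after centring each gene on its own mean. For Slfn1 the closest was Irf8, a transcription factor of myeloid cells, at 0.106, followed by the immunoproteasome subunit gene Psmb8 and the antiviral gene Oasl2. For Slfn8 they were Nod1, a sensor of bacterial cell wall fragments, at 0.104, Ifi209 and the receptor gene Cd180. For Slfn2 they were Bcl2a1d, a survival gene with near-identical copies and therefore an uncertain count, at 0.165, Irf7 and Snx20. The closest to Slfn5 were 3 signalling genes of blood cells, Lcp2 at 0.155, Pik3r6 and Lat2. The members themselves departed from their means by 1.06 to 1.33 for these 4.

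Slfn4 had other neighbours in this measure, at larger distances. They were Tnfrsf23, a decoy receptor gene, at 0.204, Igfbp3, which encodes a binding protein of insulin-like growth factors, at 0.242, and Ccr1, a chemokine receptor gene of myeloid cells, at 0.246. Ccr1 averaged 127 ± 11.3 CPM in IP and 27.2 ± 4.55 in IV, against 14.4 ± 3.71 in PBS (SD, n = 3 each). Like Slfn4 it was several times higher in IP than in IV (2.22 ± 0.19, edgeR adjusted p = 0.000223), as these genes had to be to be chosen. For Slfn3 the closest were Sacm1l and Pik3c2a, genes of phosphoinositide metabolism, at 0.207 and 0.209, and Tbc1d8b. For Slfn9, whose own departure was 0.161, they were Itga1, Smg8 and Rbm27, at 0.0758 to 0.0914.

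**Figure D5:**
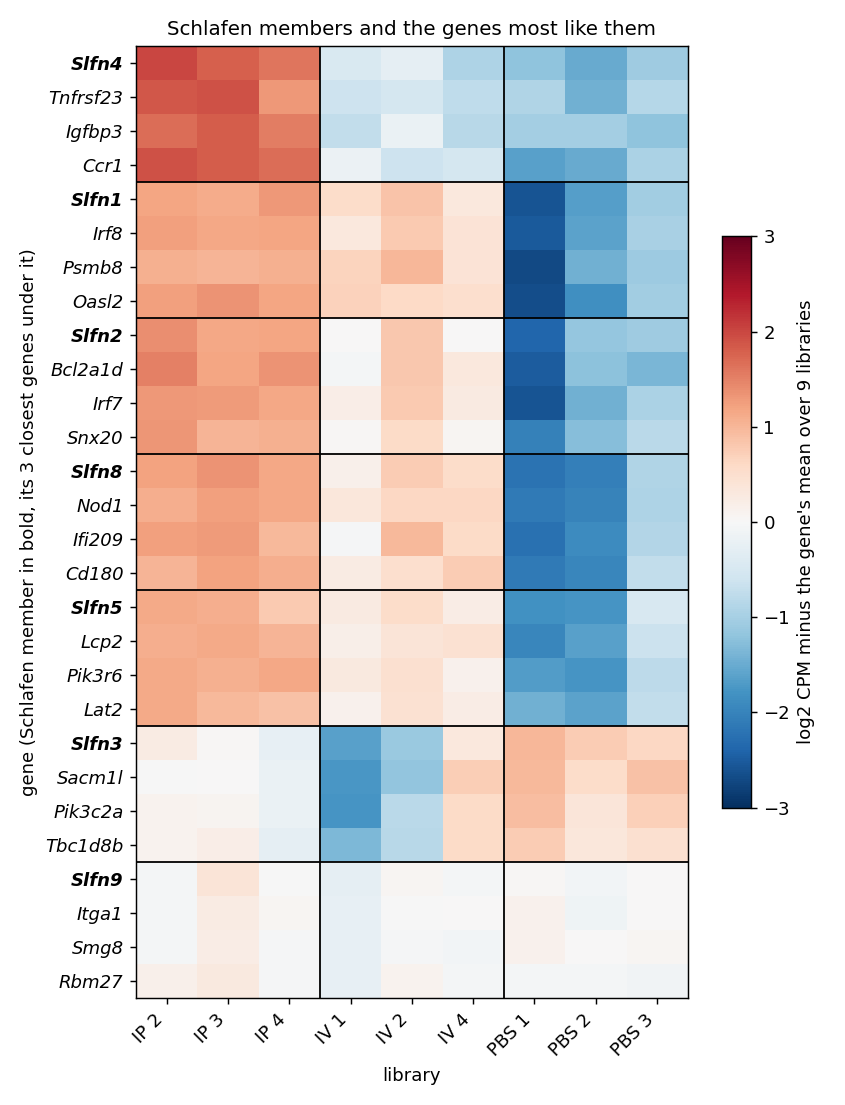
Log2 CPM, centred on each gene's mean over the 9 libraries (columns: IP, IV and PBS), for each Schlafen gene (bold) and the 3 genes with the smallest root mean square difference from it. Red is above and blue below the gene's mean. Slfn4 and its neighbours are highest in the 3 IP libraries, the blocks of Slfn1, Slfn2, Slfn5 and Slfn8 are lowest in the 3 PBS libraries, and the Slfn3 block is lowest in IV 1 and IV 2.

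Slfn10-ps, a relative annotated as a pseudogene between Slfn8 and Slfn2, was also tested. It had 6.59, 6.35 and 4.85 CPM in IP, against 0.41, 0.921 and 1.3 CPM in PBS, all IP libraries lying above all PBS libraries (log2 fold change 2.74 ± 0.49, edgeR adjusted p = 0.00162). In IV it had 1.24, 0.80 and 2.94 CPM, which overlapped PBS (1.01 ± 0.49, adjusted p = 0.188, and 0.28 without IV 4). IP exceeded IV by 1.73 ± 0.47 (adjusted p = 0.0435), a call that was lost when PBS 2, IV 1, IV 2 or any of the 3 IP libraries was left out (adjusted p from 0.0608 to 0.146). Without IV 4 the difference was 2.46, over 1.5 times as large a fold. Reads of the family can be shared: 14.1% of the 51-base windows (the read length) in Slfn8 transcripts, 10.9% in Slfn9 and 19.2% in Slfn10-ps also occurred in another Schlafen gene. For Slfn3, Slfn4 and Slfn2 these shares were 7.04%, 7.80% and 4.15%, and for Slfn1 0.551%. In Slfn5 7.35% were shared, with Slfn5os, a transcript of the opposite strand. The sources used here do not say how reads with several matches were counted, so the values of Slfn8, Slfn9 and Slfn10-ps are the least certain.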

How the data were processed

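Per the labels' protocols, a directional kit was used on poly(A) RNA, with paired reads of 51 bases. The submitters' processing notes list mm39, STAR 2.7.9, featureCounts and limma without their roles. The count table deposited by the authors holds raw counts and was used as deposited. The log2 CPM table deposited by the authors served as an alternative. Symbols, exon lengths and transcripts came from GENCODE M21 on GRCm38.

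The test was edgeR's (4.0.16, R 4.3.3) robust quasi-likelihood fit of all 9 libraries, with TMM scaling, no covariates and the 17123 genes that filterByExpr kept. Tests were two-sided, with Benjamini-Hochberg adjustment over all genes tested and a threshold of 0.05. Standard errors are the absolute log2 fold change over the square root of F. CPM are TMM-scaled. Alternatives used DESeq2 1.42.0, limma 3.58.1, other filters, other sets of libraries and a mouse number block. Promoter windows were aligned with Biopython 1.88. The fit was tested on simulated data.

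The members and lists were chosen with earlier results of these data known. Named genes are all Schlafen genes, 7 interferon genes, up to 3 genes a list with the smallest p, and the 3 genes most like each member with a mean of at least 5 CPM. Genes of this rule that bear on no Schlafen result are left out of the text, and 1 of the interferon genes is not reported here. P-values measure the spread between mice of 1 group, and the shallowest library, IV 2, gives the least precise values.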

Additional observations from a re-analysis of the deposited data

Results flagged for a closer look

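Slfn4 stood out because the effects of the routes on it differed by the test of IP against IV, with a log2 fold change of 2.35 (edgeR adjusted p = 0.000172), higher in 3 of 3 IP libraries than in any of the 3 IV libraries. No other Schlafen gene of the 7 passed this test. For Slfn1, Slfn2, Slfn5 and Slfn8 every IP library also lay above every IV library. These genes passed when the fit held only the IP and IV libraries, a setting whose calls over all genes are not given here. Groups of 3 were too small for a search for single deviating libraries.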

How the results depend on the processing

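Of 378 recomputed log2 fold changes of the 7 genes (18 settings, 3 comparisons), 351 kept their side of the threshold, 347 of them with the same sign, 27 crossed the threshold and 0 changed direction with a call. The other 4 were of Slfn9, which no setting called: IP against PBS (0.12) was -0.06 on the deposited log2 CPM and -0.03 without IP 3, and IV against PBS (-0.07) was 0 with the block and without IV 1. Between 5 and 6 members were called in IP against PBS and between 4 and 6 in IV against PBS. In IP against IV, where 1 was called, DESeq2 called 2, the fit of only these groups 5, leaving out 1 library 1 to 3, and leaving out PBS 3 and IV 4 together, a setting added after seeing the data, 4. The PBS libraries enter IP against IV only through the spread shared by the groups, the scaling and the filter. The part of each in these counts was not tested. By the mouse numbers of the titles, which differ from those of the descriptions for 4 IP and IV mice, the groups are not paired: deviations of equally numbered libraries correlated at -0.399 to 0.1, and with the replicate block 5, 6 and 1 members were called in the 3 comparisons. Over all genes, IV against PBS gave 2753 calls, 1210 with only these groups, 980 to 4580 with 1 library left out and 4442 without PBS 3 and IV 4. IP against IV gave 1780, 2765 with DESeq2, 1134 with the block, 673 to 2873 with 1 library left out and 3486 without PBS 3 and IV 4. On the deposited log2 CPM, where the median gene lay at -0.14, -0.02 and -0.11, higher genes made up 42.7%, 54.5% and 40.8% of the calls in IP against PBS, IV against PBS and IP against IV, against 56.8%, 64.8% and 57.0% on the counts. With no filter on low counts the median lay at 0.11 in IV against PBS and -0.11 in IP against IV. Depth limits Slfn3 most, with 17 counts in IV 2.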

Other observations

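The other Schlafen genes of the annotation were near the limit of detection. Slfn14 had 4 counts in PBS 2 and 0 in the other 8 libraries. Slfnl1 had 4 counts in IP 4, 1 in IV 2 and 1 in PBS 1, and 0 elsewhere. Neither passed the filter on low counts.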
